A study of Mus musculus with 4 samples.

Results

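The genes described here are 10 acute phase proteins of the mouse liver, namely the serum amyloid A genes Saa1, Saa2, Saa3 and Saa4, the orosomucoids Orm1 and Orm2, haptoglobin (Hp), leucine-rich alpha-2-glycoprotein (Lrg1), lipocalin 2 (Lcn2) and zinc-alpha-2-glycoprotein (Azgp1). They were taken by gene name from the array files, with all probes that carry that name, which gave 12 of 41174 probes and 10 of 30038 gene names. Total RNA had been measured on 4 one-colour Agilent mouse arrays labelled with Cy3. One group was hepatoblasts, the fetal liver progenitors of hepatocytes and bile duct cells, taken at embryonic day 13 (E13 hepatoblasts, n = 2). The other was hepatocytes from the liver of mice 8 weeks old (adult hepatocytes, n = 2). Both groups came from C57BL/6NCr mice, and the labels name no allele, agent or treatment in either. Neither the source animals of a group's samples nor the method of cell isolation is labelled, so a p-value below covers the variation of these samples alone, which could be technical.

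Acute phase proteins are plasma proteins made mainly by hepatocytes, whose synthesis rises many-fold during infection or injury. Interleukin 6 acts on hepatocytes through its receptor, the shared transducer gp130 (Il6st), JAK kinases and STAT3, and interleukin 1 and tumour necrosis factor act through NF-kB, with C/EBP factors taking part in both routes. Serum amyloid A proteins travel in plasma on high-density lipoprotein, the orosomucoids bind drugs and lipids, Hp captures free haemoglobin, and Lcn2 binds bacterial siderophores. Saa4 is the serum amyloid A protein that is made constitutively rather than induced.

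A level below is the log2 of a probe's processed signal minus the 75th percentile of all probes on the same array, so that 0 is the brightness of that percentile. Levels were compared within a probe between groups and not between probes, since probes differ in brightness. The arrays of a group correlated across genes at r = 0.991 (E13) and 0.989 (adult), and those of different groups at 0.727 to 0.742. Between 19272 and 23745 probes per array were well above background as marked by the scanner software, and no spot was saturated. Markers of the labelled cells followed the labels, the summed signal of 7 hepatoblast markers being 1905 and 2248 times the 75th percentile on the E13 arrays and 4.14 and 4.30 times on the adult arrays. One hepatoblast marker, Epcam, was not well above background on any array. The summed signal of 9 hepatocyte markers was 1419 and 1428 in E13 hepatoblasts and 4262 and 4330 in adult hepatocytes.

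The serum amyloid A genes lie side by side. Their probes map, in the array files' mm9 coordinates, to a stretch of 41.6 kb on chromosome 7 in the order Saa3, Saa4, Saa1 and Saa2, and the Orm1 and Orm2 probes to 18.6 kb on chromosome 4. Windows of 250 bases before the gene start were found for 8 of the 10 genes in a RefSeq table of the GRCm38.p6 build. The windows of Saa1 (chr7:46742981-46743230, minus strand) and Saa2 (chr7:46751583-46751832, plus strand), which face away from each other in the genome, were nearly the same sequence. They are shown because of that likeness, with the bases that differ between them in capitals.
Saa1: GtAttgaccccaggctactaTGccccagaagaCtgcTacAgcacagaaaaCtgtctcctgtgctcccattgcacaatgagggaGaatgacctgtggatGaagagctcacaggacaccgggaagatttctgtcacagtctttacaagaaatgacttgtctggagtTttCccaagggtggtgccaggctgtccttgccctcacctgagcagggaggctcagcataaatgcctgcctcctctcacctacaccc
Saa2: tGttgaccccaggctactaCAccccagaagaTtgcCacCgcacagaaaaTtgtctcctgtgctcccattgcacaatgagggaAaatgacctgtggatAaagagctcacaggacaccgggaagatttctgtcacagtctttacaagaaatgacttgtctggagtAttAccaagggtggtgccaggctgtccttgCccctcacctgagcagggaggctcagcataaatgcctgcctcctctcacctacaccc
Aligned over 251 positions, the windows of Saa1 and Saa2 were identical at 238 (94.8%), with 11 mismatches and 2 gaps. The window of Saa3 was identical to that of Saa1 at 52.9% and of Saa2 at 52.4% of aligned positions, and that of Saa4 to any of the other three at 49.1% to 49.5%.

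Both strands of the windows were searched for 4 motifs of the acute phase pathways: TTCNNNGAA for STAT, TTNNGNAAT for C/EBP, GGG and CC with any 5 bases between them for NF-kB and CTGGGAA for the interleukin 6 response element. Of 32851 promoter windows of the same length in the table, 7.02% held the STAT, 10.2% the C/EBP, 45.8% the NF-kB and 9.1% the interleukin 6 motif. Saa1 and Saa2 each held a C/EBP match, ATTGCACAA, at bases -183 to -175 and -184 to -176 before the start, and an NF-kB match, GGGTGGTGCC, at -78 to -69 and -79 to -70. Single matches were found for NF-kB in Saa4 and Lcn2 and for C/EBP in Orm2, while Lrg1 held one NF-kB match and one interleukin 6 motif. The windows of Saa3 and Azgp1 held none of the motifs, and none of the 8 windows held the STAT letters. A match describes letters only and says nothing of binding. The windows of Orm2 (chr4:63362199-63362448, plus strand) and Lrg1 (chr17:56121947-56122196, minus strand) follow, with matches in capitals.
Orm2: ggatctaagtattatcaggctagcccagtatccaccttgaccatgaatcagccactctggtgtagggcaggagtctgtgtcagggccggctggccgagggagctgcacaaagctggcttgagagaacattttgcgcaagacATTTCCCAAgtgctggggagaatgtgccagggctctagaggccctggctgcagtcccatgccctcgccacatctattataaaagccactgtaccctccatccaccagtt
Lrg1: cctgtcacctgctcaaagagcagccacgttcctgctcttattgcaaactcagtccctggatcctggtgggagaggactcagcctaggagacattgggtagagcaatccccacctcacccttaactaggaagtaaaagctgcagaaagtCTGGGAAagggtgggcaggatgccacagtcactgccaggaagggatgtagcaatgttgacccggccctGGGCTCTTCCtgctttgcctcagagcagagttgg
The Orm2 match lies at -109 to -101, and the Lrg1 matches at -102 to -96 (interleukin 6 motif) and -34 to -25 (NF-kB).

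All 10 genes were higher in adult hepatocytes, by limma with Benjamini-Hochberg adjustment over all genes tested, where 32.0% of 16411 genes were called higher and 32.8% lower at an adjusted p under 0.05. Adjusted p ranged from 2.23e-05 (Saa2) to 0.000754 (Lcn2). Saa2, Orm1 and Orm2 passed the filter through the adult arrays alone, so their p-values rest on E13 values not well above background. The other 7 genes were well above background on all arrays. With that demanded of every gene, all 7 were called higher, as were 4820 of 12768 genes. In total RNA of a cell preparation, more cells of a type and more transcript per cell cannot be told apart, which holds for every gene here. In all 10 both adult arrays lay above both E13 arrays, as they did in 42.6% of all genes tested. All 12 probes were called higher, against 30.7% of 23450 probes tested. Among them the Saa1 probe A_51_P361650, like those of Saa2, Orm1 and Orm2, passed the filter through the adult arrays alone. The median log2 difference was 10.42 over the 10 genes and -0.01 over all genes tested. A log2 difference of at least 5 towards adult hepatocytes was found in 2.72% of all genes, and in every one of the 10 genes except Saa4.

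**Figure D1:**
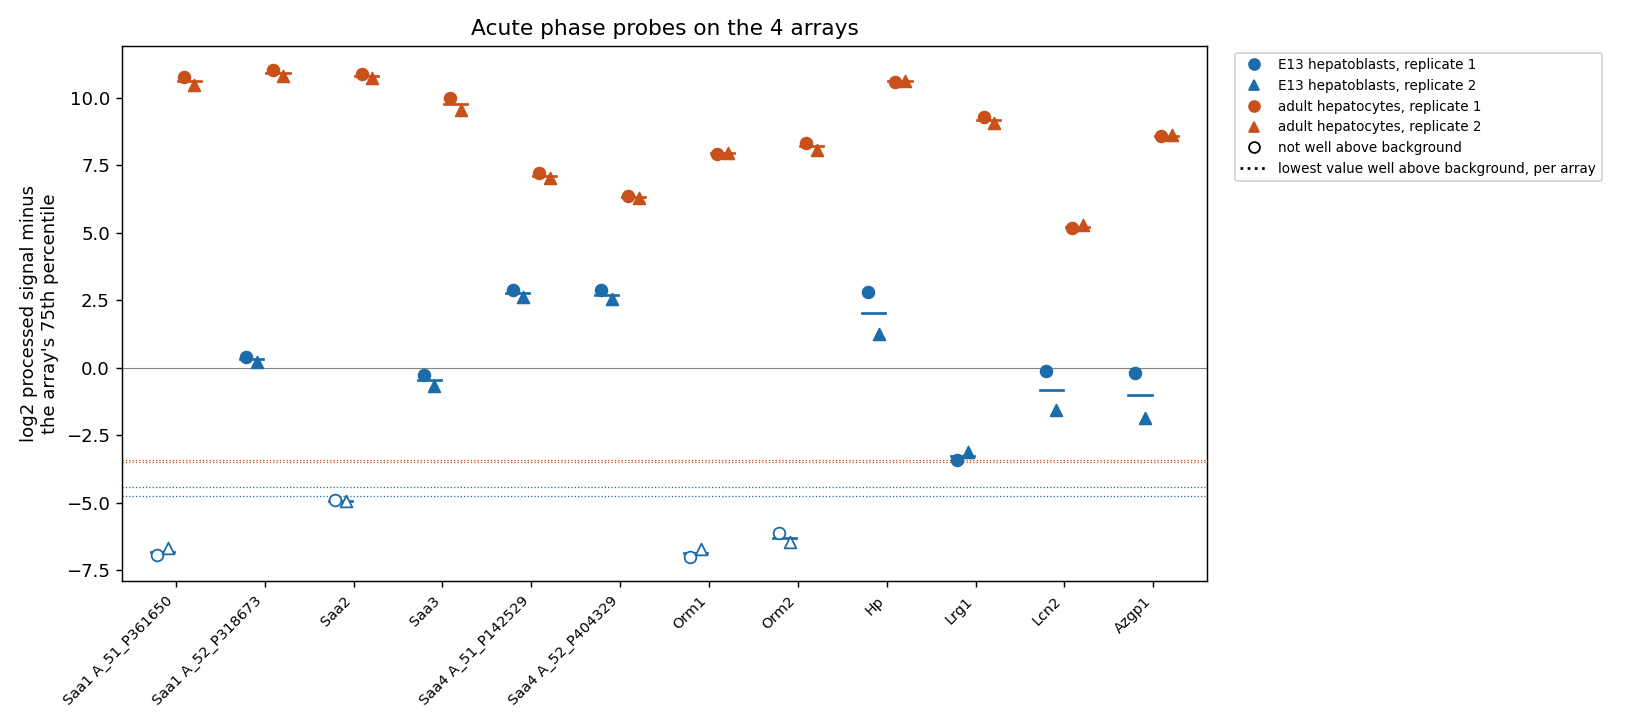
Level of each of the 12 acute phase probes (log2 processed signal minus the array's 75th percentile) on the E13 hepatoblast arrays (blue) and adult hepatocyte arrays (orange), with short lines at group means, open symbols for values not well above background and dotted lines at the lowest value well above background on each array. Adult values lie above E13 values for every probe, and the E13 pairs of Hp, Lcn2 and Azgp1 are spread widest.

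Among the serum amyloid A genes, Saa1, an acute phase apolipoprotein of high-density lipoprotein (probe A_52_P318673, chr7:53996070-53996129 of mm9), was at 0.41 and 0.21 on the E13 arrays (mean 0.31 ± 0.15, SD, n = 2) and at 11.03 and 10.82 on the adult arrays (10.93 ± 0.14). Its difference was 10.61 ± 0.17 (SE) on the log2 scale, or 1568-fold (adjusted p = 3.04e-05, limma). Both E13 values were well above background and close together, so the difference was far larger than the spread within either group.

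A second Saa1 probe, A_51_P361650, gave another picture of the E13 samples. This probe maps to chr7:53996167-53996639, a span of 473 bases for an oligonucleotide of 60, so that its target is interrupted, as by an intron. Its adult levels were 10.77 and 10.50, but its E13 levels were -6.96 and -6.66, not well above background. By the second probe Saa1 was at least 38299-fold higher in adult hepatocytes (adjusted p = 1.53e-05 over probes, limma), against 1568-fold by the first. Saa1 and Saa2 transcripts are near-identical copies that either probe may bind, and the RefSeq table lists each symbol among the older names of the other. Which gene's transcripts gave the E13 signal of the first probe was not tested. The sequences of both probes are shown because the E13 level of Saa1 depends on which is read.
Saa1 A_52_P318673: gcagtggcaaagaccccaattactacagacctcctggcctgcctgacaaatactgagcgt
Saa1 A_51_P361650: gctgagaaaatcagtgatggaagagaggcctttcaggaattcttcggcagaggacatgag
The probes do not overlap, the first starting after the second in the transcript.

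For Saa2, the close relative of Saa1 with the same role (probe A_51_P166886, chr7:54009535-54009594), the E13 levels were -4.92 and -4.94 and the adult levels 10.87 and 10.72 (10.80 ± 0.10). The E13 values lay just under the lowest levels counted as well above background on those arrays, -4.75 and -4.44. With the background correction of the scanner software, Saa2 was at least 42898.5-fold higher in adult hepatocytes (adjusted p = 2.23e-05 for the fitted difference, limma). Such a bound sets the adult mean against the mean, over the E13 arrays, of the lowest level well above background or the probe's own level, whichever is higher. An adjusted p printed with a bound, here and elsewhere, tests the fitted difference and not the bound. That fitted difference rests on values not well above background in 1 of the groups.

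Saa3, a serum amyloid A gene known for expression in macrophages and fat as well as liver (probe A_51_P337308, chr7:53968031-53968090), was at -0.27 and -0.66 on the E13 arrays (-0.46 ± 0.28) and at 9.99 and 9.55 on the adult arrays (9.77 ± 0.31). The groups did not overlap, and the difference was 10.23 ± 0.24 (SE), or 1205-fold (adjusted p = 5.07e-05, limma). Markers of macrophages and Kupffer cells moved with it: the summed signal of 15 such markers was 1.72 and 0.89 times the 75th percentile on the E13 arrays and 20.1 and 16.2 times on the adult arrays, 13.9-fold higher by the group means. Of the 15 markers, 9 and 6 were well above background on the E13 arrays and 12 and 11 on the adult arrays. The leading gene of the sum was Marco on the E13 arrays and Mpeg1 on the adult arrays. The Kupffer cell markers Clec4f, Vsig4 and Cd163 were well above background on both adult arrays and on neither E13 array. Marco, from the same list, was at -0.78 and -1.75 on the E13 arrays and at -1.49 and -2.14 on the adult arrays. Of 12 markers tested, 10 were called higher in adult hepatocytes, against 32.0% of all genes. Marco and Cd68 were not called. The part of these cells in the Saa3 difference was not tested.
Saa3 A_51_P337308: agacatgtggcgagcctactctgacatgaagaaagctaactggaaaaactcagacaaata
Saa3's probe is shown as the one in this family whose gene lies outside the Saa1 and Saa2 pair and whose difference was of similar size.

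Saa4, the constitutive member, differed least. Its level by probe A_51_P142529 (chr7:53984760-53984819) was 2.88 and 2.63 in E13 hepatoblasts (2.76 ± 0.17) and 7.21 and 7.02 in adult hepatocytes (7.12 ± 0.13), a difference of 4.36 ± 0.17 (SE) or 20.5-fold (adjusted p = 0.000122, limma). A second probe, A_52_P404329 (chr7:53983662-53983721), gave E13 levels of 2.88 and 2.55 and adult levels of 6.36 and 6.28. That is a log2 difference of 3.61 ± 0.18 (SE), or 12.2-fold (adjusted p = 0.000166 over probes, limma). Both probes of Saa4 were thus called higher. E13 hepatoblasts already held Saa4 signal well above background, above the 75th percentile of their arrays by both probes.

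The orosomucoids, or alpha-1-acid glycoproteins, were not well above background in E13 hepatoblasts. Orm1 (probe A_51_P336325, chr4:63006483-63007090, a target interrupted over a span of 608 bases) was at -7.01 and -6.71 on the E13 arrays and at 7.94 and 7.96 on the adult arrays (7.95 ± 0.014). It was at least 5948-fold higher in adult hepatocytes (adjusted p = 2.64e-05, limma). Orm2 (probe A_51_P141546, chr4:63024979-63025038) was at -6.11 and -6.47 on the E13 arrays and at 8.35 and 8.07 on the adult arrays (8.21 ± 0.19). Its difference was at least 7131-fold (adjusted p = 2.72e-05, limma). Saa2, Orm1 and Orm2 were the 3 genes without E13 signal well above background, a state shared by 8.37% of the 5259 genes called higher in adult hepatocytes. Orm1 and Orm2 are close copies in sequence, so a probe may bind both transcripts, and their values may not be independent.
Orm1: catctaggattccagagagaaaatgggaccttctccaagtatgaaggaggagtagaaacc
Orm2: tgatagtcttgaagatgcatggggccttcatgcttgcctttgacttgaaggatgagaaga
The 2 probes are shown so that the reported bounds can be traced to the sequence measured.

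Bounds this large depend on how background was handled. With normexp background correction at an offset of 50, which raises dim values, the log2 difference was 13.14 for Saa2, 10.64 for Orm1, 10.69 for Orm2 and 13.18 for the second Saa1 probe, all under the bounds given above. The same held for the bounds given further on for Serpina3k (12.98), A2m (-4.43), Osmr (1.35), Socs1 (-0.03) and Cd163 (1.54), so none of these bounds held with normexp. Scaling to 7 spike-in control probes lowered the log2 difference of every gene by the same amount, which took the median of all genes from -0.01 to -1.26 and that of the 10 genes from 10.42 to 9.17, with all 10 still called higher. Differences given here take the 75th percentile of an array as their zero.

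**Figure D2:**
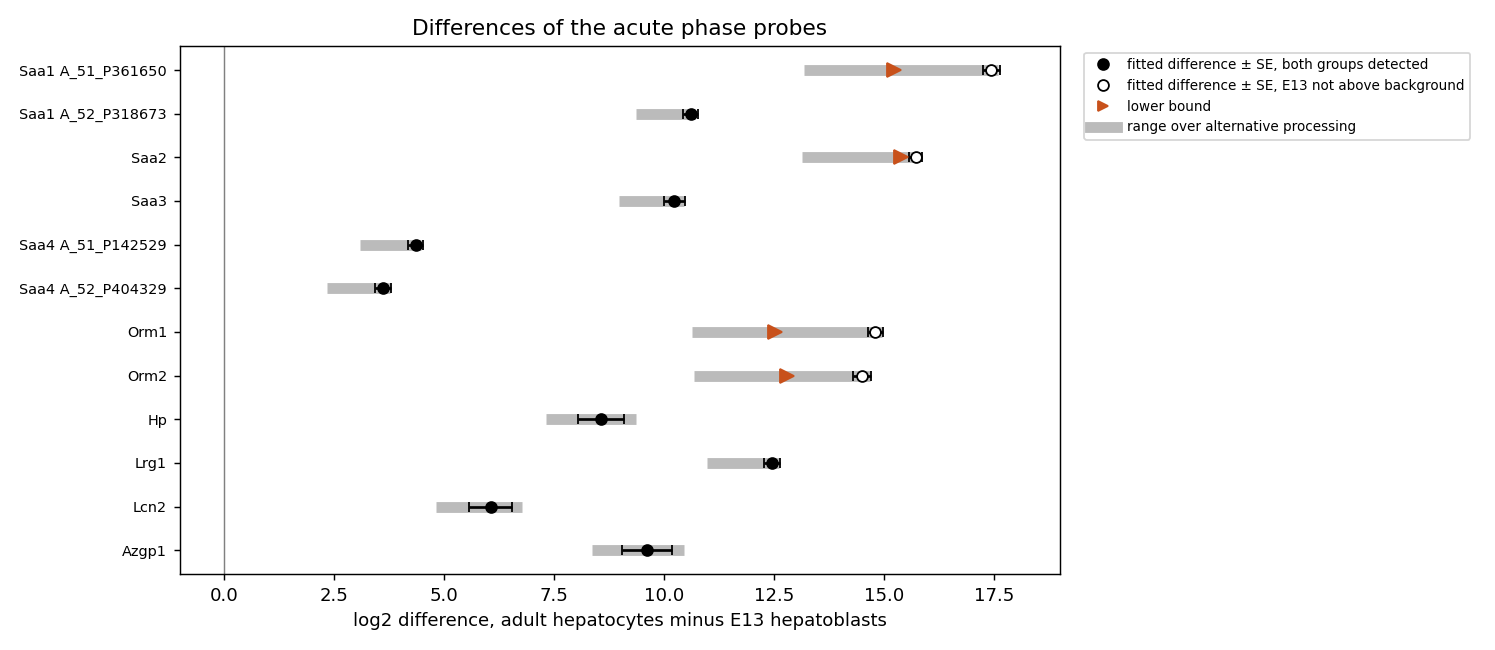
Log2 difference, adult hepatocytes minus E13 hepatoblasts, of each acute phase probe with its standard error (points), the lower bound where E13 signal was not well above background (orange triangles) and the range over alternative processing (grey bars). For the probes well above background in both groups the differences run from 3.61 (Saa4, A_52_P404329) to 12.47 (Lrg1), and no grey bar reaches 0.

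Of the transport and binding proteins outside these families, Lrg1, a secreted leucine-rich glycoprotein that takes part in TGF-beta signalling, differed most. Its level (probe A_51_P346938, chr17:56259257-56259316) was -3.42 and -3.14 on the E13 arrays (-3.28 ± 0.20) and 9.29 and 9.09 on the adult arrays (9.19 ± 0.15). The difference was 12.47 ± 0.18 (SE), or 5664-fold (adjusted p = 2.87e-05, limma). With the brightest probe of each gene, it was the largest among the 7 of these genes that were well above background on all 4 arrays, but Saa1 was at 14.03 with the mean of its probes.

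Haptoglobin, the haemoglobin scavenger of plasma (Hp, probe A_51_P235945, chr8:112099172-112099231), was at 2.82 and 1.26 on the E13 arrays (2.04 ± 1.10) and at 10.60 and 10.62 on the adult arrays (10.61 ± 0.015). The difference was 8.58 ± 0.54 (SE), or 382-fold (adjusted p = 0.000369, limma). E13 replicate 1 was the higher of its pair, and without that array the log2 difference was 9.36, against 7.80 without E13 replicate 2.

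For Azgp1, a lipid-mobilising plasma protein with a fold like that of MHC class I chains (probe A_51_P456721, chr5:138431245-138431304), the E13 levels were -0.18 and -1.87 (-1.02 ± 1.19) and the adult levels 8.58 and 8.62 (8.60 ± 0.027). Adult hepatocytes were higher by 9.63 ± 0.58 (SE), or 790-fold (adjusted p = 0.00033, limma). Again E13 replicate 1 was the higher, and the log2 difference was 10.47 without it and 8.78 without E13 replicate 2.

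Lcn2, the siderophore-binding lipocalin also stored in neutrophil granules (probe A_51_P510156, chr2:32241037-32241281, a target interrupted over 245 bases), was at -0.12 and -1.55 on the E13 arrays (-0.84 ± 1.01) and at 5.17 and 5.29 on the adult arrays (5.23 ± 0.088). Its difference of 6.07 ± 0.49 (SE), or 67.0-fold (adjusted p = 0.000754, limma), was the smallest of the set after Saa4. Without E13 replicate 1 it was 6.78 and without E13 replicate 2 it was 5.35.

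Hp, Azgp1 and Lcn2 thus shared a gap between the E13 arrays that Saa1, Saa3, Saa4 and Lrg1 lacked. Saa2, Orm1 and Orm2 were well above background on neither E13 array, so their values cannot show whether such a gap was present. E13 replicate 1 exceeded replicate 2 by 2.95-fold for Hp, 3.22-fold for Azgp1 and 2.68-fold for Lcn2, while the median absolute log2 difference between these arrays was 0.17 over all genes. Only 1.13% of genes differed as much between the E13 arrays as Hp, 0.817% as Azgp1 and 1.44% as Lcn2. In the remaining 7 genes the E13 arrays differed by at most 0.39 on the log2 scale, and in all 10 the adult arrays differed by at most 0.44. Gaps of this size are small beside the group differences.

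**Figure D3:**
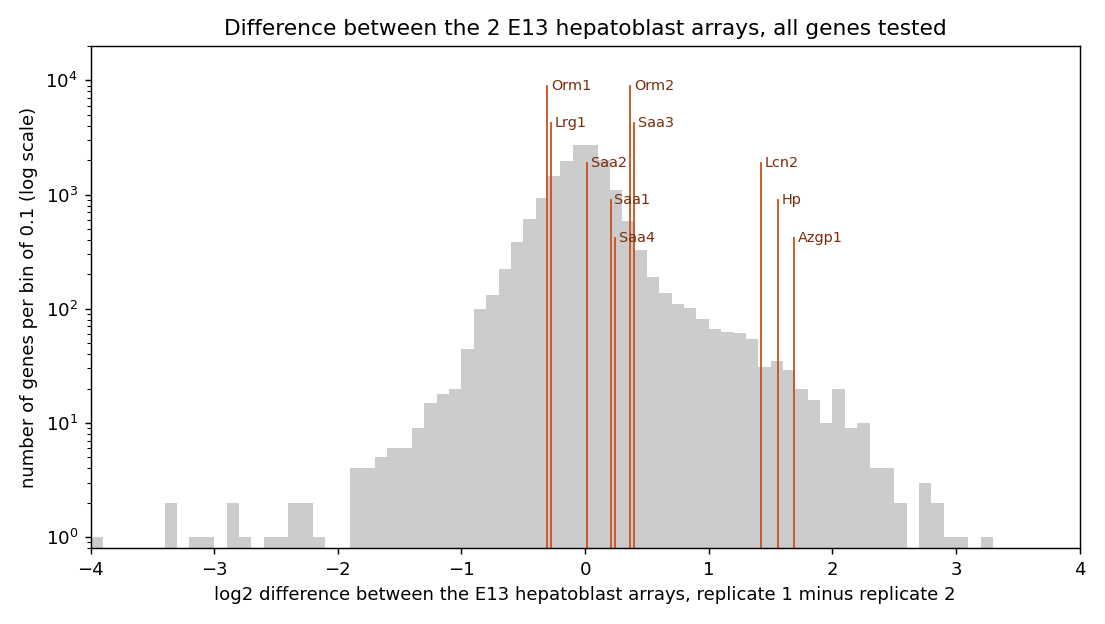
Number of genes (log scale) by the log2 difference between the E13 hepatoblast arrays, replicate 1 minus replicate 2, with lines at the 10 acute phase genes. Lcn2 (1.42), Hp (1.56) and Azgp1 (1.69) stand in the right tail, and the other 7 genes lie within 0.39 of 0. Among those 7, Saa2, Orm1 and Orm2 were not well above background on the E13 arrays.

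Erythroid, neutrophil, megakaryocyte, macrophage, endothelial and stellate cell markers were also higher in sum on E13 replicate 1, while those of lymphocytes, hepatoblasts and bile duct cells were not. The summed signal of 13 erythroid markers was 201 times the 75th percentile on E13 replicate 1 and 49.9 times on replicate 2, a 4.04-fold gap, against 30.0 and 23.1 on the adult arrays. The leading gene of that sum was Hbb-b1 on the E13 arrays and Alas2, the first enzyme of haem synthesis in red cell precursors, on the adult arrays. Alas2 was at 0.76 and -0.97 on the E13 arrays and at 4.69 and 4.34 on the adult arrays, 24.6-fold higher (adjusted p = 0.00297, limma). The haemoglobin genes Hbb-b1 and Hba-a1 fell, while Hbb-bh1 and Hbb-y were not called (adjusted p = 0.0588 and 0.0747, limma). Of 10 erythroid markers tested, Alas2 alone was called higher, 5 were lower and 4 neither. Neutrophil and granulocyte precursor markers (16 genes) summed to 2.69 and 1.15 on the E13 arrays, a 2.33-fold gap, and to 3.82 and 3.41 on the adult arrays. Of these 16, 7 were well above background on each E13 array and 4 on each adult array. S100a8, S100a9, Ltf and Mpo were well above background on the E13 arrays alone and Csf3r on the adult arrays alone. Lyz2, Prtn3 and Ctsg were so on all arrays, and Lyz2 was the leading gene of the sum on each. Camp, Ngp, Elane, Cxcr2, Retnlg, Mmp8, Mmp9 and Chi3l3 were so on no array. Of the 7 detected on the E13 arrays, S100a8, S100a9, Mpo, Ctsg and Lyz2 were higher on replicate 1. Ltf had almost no gap (-2.41 and -2.41), and Prtn3 ran the other way (-3.84 and -3.54). Megakaryocyte and platelet markers summed to 42.6 and 22.6, endothelial markers to 6.46 and 4.32, stellate and mesenchymal markers to 106 and 75.1, and macrophage markers, given beside Saa3, were 1.93-fold higher on E13 replicate 1. Lymphocyte markers (9 genes) ran the other way at 0.49 and 0.63, as did hepatoblast markers (a ratio of 0.85), and bile duct markers had a ratio of 0.97. The sum of the hepatocyte markers had a ratio of 0.99 but was led by Alb, at 9.68 and 9.79 on the E13 arrays. Within that list Cps1, a urea cycle enzyme, was at -0.41 and -1.98 on the E13 arrays and Ttr, the plasma carrier transthyretin, at 4.49 and 3.99. Tat (-1.63 and -1.37) and Hnf4a (3.49 and 3.64) ran the other way, as did Alb. Apoa1 (6.84 and 6.78), Fgb (8.81 and 8.66) and G6pc (-3.60 and -3.69) had smaller gaps than Ttr. Cyp2e1 was well above background on neither E13 array. The part of these cells in the E13 levels of Hp, Azgp1 and Lcn2 was not tested.

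**Figure D4:**
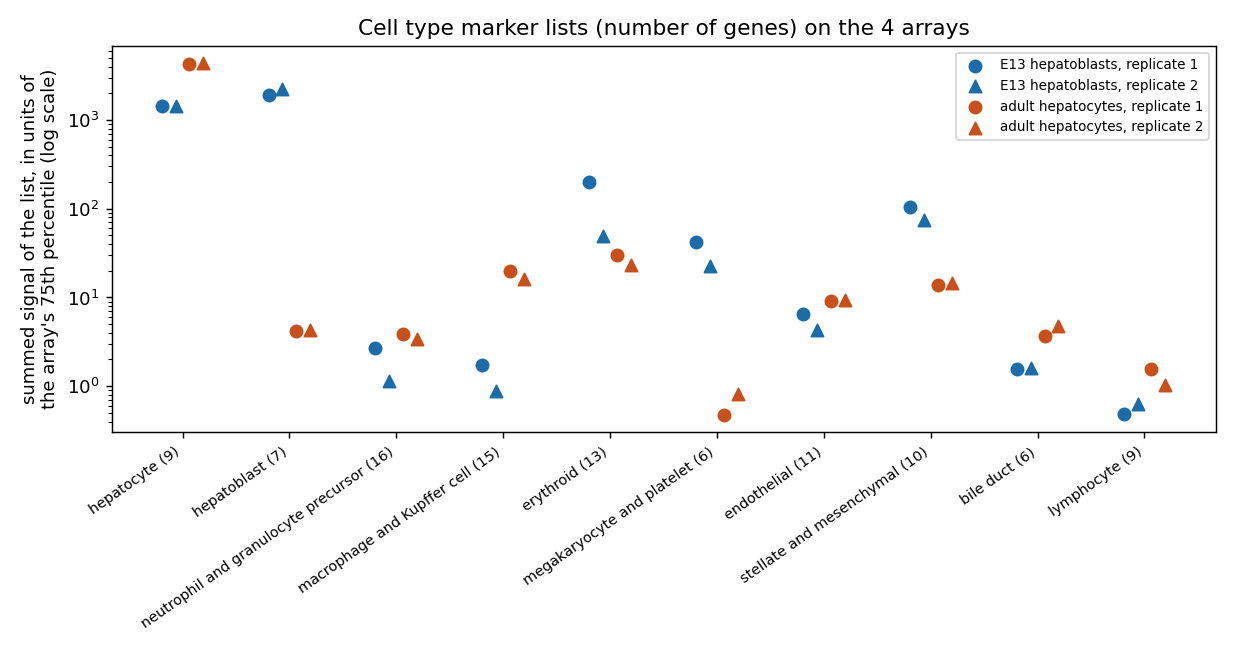
Summed signal of each cell type marker list, in units of the array's 75th percentile (log scale), on the 4 arrays, with the number of genes in brackets. Erythroid markers stand at 201 and 49.9 on the E13 arrays, and macrophage markers are higher on both adult arrays than on both E13 arrays.

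Other genes listed as positive acute phase genes mostly moved with the 10 genes. Most encode plasma proteins whose level rises in inflammation, but the list also holds proteins kept in cells, such as the metallothioneins Mt1 and Mt2. Of 30 genes listed, 28 were on the array and 25 were tested. Of these, 21 were higher in adult hepatocytes, 3 lower and 1 neither, with a median log2 difference of 2.99. Over all genes tested the shares were 32.0% higher and 32.8% lower, the background for the counts of this and the later lists. Serpina3m, a serine protease inhibitor, rose from -2.96 and -2.92 to 10.56 and 10.50, a difference of 13.47 ± 0.14 (SE, adjusted p = 2.23e-05). Its relative Serpina3k was at least 31923-fold higher, with E13 levels not well above background (adjusted p = 2.64e-05). Hamp2, a hepcidin gene, rose from -4.40 and -4.23 to 4.24 and 4.76, a difference of 8.82 ± 0.23 (SE, adjusted p = 6.02e-05).

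The members of that list that were lower in adult hepatocytes were the protease inhibitor A2m, the interleukin 1 receptor antagonist Il1rn and the metallothionein Mt1. A2m was at 2.997 and 1.88 on the E13 arrays and not well above background on the adult arrays, a fall of at least 59.5-fold (adjusted p = 0.000204). Il1rn was at 0.44 and -0.76 against -2.56 and -2.45, a difference of -2.35 ± 0.42 (SE, adjusted p = 0.00814), or -1.75 without E13 replicate 1 and -2.95 without E13 replicate 2. Mt1 was at 9.28 and 9.33 against 8.69 and 7.91, a difference of -1.01 ± 0.29 (SE, adjusted p = 0.0351), which was not called without E13 replicate 1 (-1.03, adjusted p = 0.112) or without E13 replicate 2 (-0.986, adjusted p = 0.124). A fit without one array rests on a lone array in that group, whose variation is taken from the other pair, here and wherever such a value is given. Mt2, a metallothionein too, was not called, its log2 difference of 0.16 (adjusted p = 0.552) turning to -0.82 with quantile normalization (adjusted p = 0.0262) and -1.09 with spike-in scaling (adjusted p = 0.00572), where it was called lower both times.

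Negative acute phase proteins, whose plasma level falls in inflammation, were also mostly higher in adult hepatocytes. Of 12 tested, 11 were higher and 1 lower, with a median log2 difference of 1.28. These counts depended on scaling, since 6 were called higher with quantile normalization and 4 with spike-in scaling, with 1 lower each time. Igf1, the circulating growth factor of postnatal growth, rose from -3.04 and -3.65 to 7.41 and 7.62 (10.86 ± 0.25, SE, adjusted p = 5.06e-05). Fetub, a fetuin, rose from -0.13 and -0.94 to 7.07 and 7.14 (7.63 ± 0.30, SE, adjusted p = 0.000124). Serpina6, the corticosteroid-binding globulin of plasma, was the one that fell, from 9.20 and 9.33 to 5.64 and 6.84 (-3.02 ± 0.42, SE, adjusted p = 0.00378). Its difference was -2.42 without adult replicate 1 and -3.62 without adult replicate 2.

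**Figure D5:**
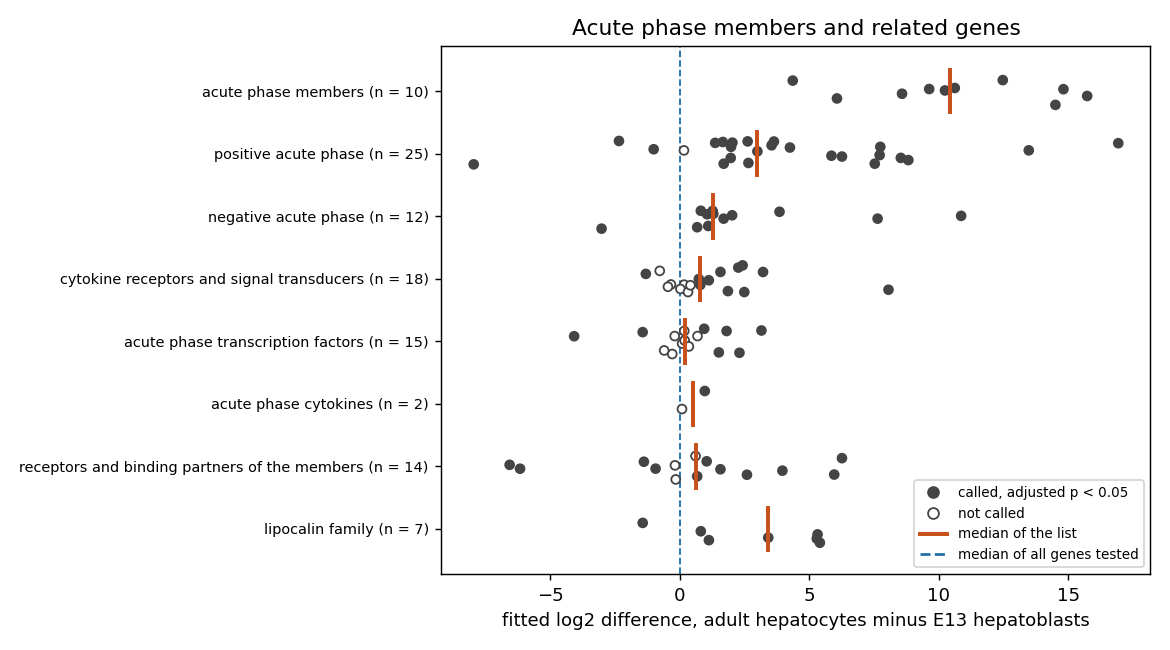
Fitted log2 difference, adult hepatocytes minus E13 hepatoblasts, of the 10 acute phase genes and of 7 lists of related genes (filled points called at an adjusted p under 0.05, open points not), with the median of each list in orange and the median of all genes tested as a dashed line. The 10 genes have a median of 10.42, and the medians of the related lists run from 0.19 (transcription factors) to 3.41 (lipocalins).

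Most cytokines that induce acute phase proteins were not well above background in either group. Of 9 listed, 8 were on the array and 2 passed the filter, Il11 and Ctf1. Il6 was well above background on neither E13 array and on 1 of the 2 adult arrays, at levels of -3.30 and -2.96 close to the lowest counted as above background there (-3.50 and -3.41). Il1a, Il1b, Tnf, Osm and Il22 were not well above background on any array. Il11, a cytokine of the interleukin 6 family, was at -4.13 and -4.11 in E13 hepatoblasts and -3.01 and -3.30 in adult hepatocytes (0.96 ± 0.17, SE, adjusted p = 0.00755), but its difference was -0.29 with spike-in scaling. It was well above background on 1 of the 2 adult arrays. Its levels lay near the lowest counted as above background, which were -4.75 and -4.44 on the E13 arrays. Those lowest levels were themselves higher on the adult arrays, so the call cannot be read as a rise of Il11. Ctf1, cardiotrophin, did not pass the test at 0.083 (adjusted p = 0.785), a value that turned to -0.024 with normexp and to -1.17 with spike-in scaling, where it was called lower (adjusted p = 0.00769).

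Receptors and transducers of those cytokines were split. Of 18 tested, 10 were higher in adult hepatocytes, 1 lower and 7 neither, with a median log2 difference of 0.76, but with spike-in scaling 6 were higher and 8 lower. Il1rap, the accessory chain of the interleukin 1 receptor, rose from -3.23 and -4.06 to 4.26 and 4.56 (8.05 ± 0.32, SE, adjusted p = 0.000126). The interleukin 6 receptor chain Il6ra rose from -3.46 and -3.32 to -0.94 and -0.86 (2.49 ± 0.15, SE, adjusted p = 0.000328). Osmr, the oncostatin M receptor, was at least 4.13-fold higher in adult hepatocytes, with no E13 array well above background (adjusted p = 0.00243). The ligand-binding interleukin 1 receptor Il1r1 was not called (-0.78 ± 0.43, SE, adjusted p = 0.173), nor was the kinase Jak1 (-0.34 ± 0.14, SE, adjusted p = 0.0866). Both were called lower with spike-in scaling and with normexp. Jak1 was also called lower with quantile normalization (-0.86, adjusted p = 0.0061) and with the trend and robust options of eBayes (adjusted p = 0.0359), and Il1r1 without adult replicate 1 (-1.38, adjusted p = 0.00844). Socs1, a feedback inhibitor of JAK kinases, was at least 1.87-fold lower in adult hepatocytes (adjusted p = 0.0038), a call lost with normexp, where its difference was -0.03.

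Transcription factors of the acute phase pathways had a median difference closer to that of all genes. Of 15 tested, 5 were higher in adult hepatocytes, 2 lower and 8 neither, with a median of 0.19. The share called higher was thus near the 32.0% of all genes, and with spike-in scaling 3 were higher and 8 lower. Cebpb, a C/EBP factor activated by interleukin 6, rose from 2.37 and 2.31 to 5.45 and 5.54 (3.15 ± 0.14, SE, adjusted p = 0.000164). Cebpd, another C/EBP factor, rose from 0.76 and -0.20 to 2.50 and 2.66 (2.30 ± 0.35, SE, adjusted p = 0.00485). The zinc finger factor Klf6 fell from 2.67 and 3.14 to -1.38 and -0.96 (-4.08 ± 0.25, SE, adjusted p = 0.00035). Nfkbiz, a nuclear regulator of NF-kB, fell from -0.45 and -0.22 to -1.86 and -1.68 (-1.43 ± 0.17, SE, adjusted p = 0.00223). Stat3 was not called at 0.68 ± 0.32 (SE, adjusted p = 0.119), a value of -0.57 with spike-in scaling, though without adult replicate 2 it was called higher (1.09, adjusted p = 0.0181). Nfkb1, the p50 subunit gene of NF-kB, was not called at -0.29 ± 0.19 (SE, adjusted p = 0.237), but was called lower with spike-in scaling (-1.55, adjusted p = 0.00129) and with the mean of its probes (-0.61, adjusted p = 0.0239).

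Among receptors and binding partners of the 10 proteins, 14 of 18 were tested, of which 7 were higher in adult hepatocytes, 4 lower and 3 neither, with a median of 0.64. With spike-in scaling 4 were higher and 6 lower. The haemoglobin chains that Hp binds fell, Hbb-b1 from 7.09 and 5.04 to 0.64 and -1.65 (-6.57 ± 1.03, SE, adjusted p = 0.00527) and Hba-a1 from 5.75 and 3.67 to -0.20 and -2.71 (-6.17 ± 1.09, SE, adjusted p = 0.00773). With any 1 of the 4 arrays left out, the difference lay between -7.72 and -5.42 for Hbb-b1 and between -7.42 and -4.91 for Hba-a1. Cd163, the macrophage receptor of the Hp and haemoglobin complex, was at least 3.23-fold higher in adult hepatocytes, with E13 levels not well above background (adjusted p = 0.000193); it was named after its values were seen. Cp, the ferroxidase ceruloplasmin, rose from 2.84 and 0.79 to 8.05 and 8.10 (6.26 ± 0.69, SE, adjusted p = 0.00183), or by 7.28 without E13 replicate 1 and 5.23 without E13 replicate 2. B2m, the partner chain of MHC class I proteins, rose from 6.27 and 6.05 to 8.60 and 8.90 (2.59 ± 0.18, SE, adjusted p = 0.000523).

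Receptors reported for serum amyloid A, Lcn2 and Lrg1 were part of the same list. Cd36, a scavenger receptor that binds serum amyloid A, was well above background on 1 of 2 E13 arrays. It rose from -4.30 and -6.70 to -0.07 and 0.99 (5.96 ± 0.88, SE, adjusted p = 0.00442). The rise was 7.16 without E13 replicate 1, 4.76 without E13 replicate 2 and 3.17 with normexp. Fpr2, another receptor of serum amyloid A, was not well above background on any array. Lrp2, the endocytic receptor megalin that takes up Lcn2, was at -4.15 and -3.76 on the E13 arrays and at -3.33 and -4.95 on the adult arrays, where neither value was well above background. Lrp2 was not called (adjusted p = 0.789), and its direction turned with processing. It was called higher with normexp (0.67, adjusted p = 0.0156) and lower with spike-in scaling (-1.44, adjusted p = 0.0413), with the mean of its probes (-1.02, adjusted p = 0.0368) and without adult replicate 1 (-0.998, adjusted p = 0.0343). Eng, an endothelial TGF-beta co-receptor linked to Lrg1, was not called at 0.61 ± 0.48 (SE, adjusted p = 0.309) and was at -0.65 with spike-in scaling, though without E13 replicate 1 it was called higher (1.29, adjusted p = 0.0172). The other receptors of these proteins that were called are given next, named after their values were seen. Scarb1, the high-density lipoprotein receptor that also binds serum amyloid A, was higher by 1.04 ± 0.16 (SE, adjusted p = 0.00469), a call lost with quantile normalization (0.43, adjusted p = 0.0746) and a value of -0.22 with spike-in scaling. Slc22a17, a receptor of Lcn2, differed by -0.94 ± 0.17 (SE, adjusted p = 0.00802), a call lost with normexp (-0.078, adjusted p = 0.698) and without E13 replicate 2 (-0.83, adjusted p = 0.0541). Tgfbr2, a TGF-beta receptor, differed by -1.39 ± 0.25 (SE, adjusted p = 0.00786). Lrp1, another receptor of the list, was higher by 1.57 ± 0.18 (SE, adjusted p = 0.00221, limma) and was not followed over the alternatives.

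Lipocalins other than Lcn2 and the orosomucoids, small secreted carriers of the same fold, were mostly higher in adult hepatocytes. Of 11 listed, 7 were tested, with 6 higher, 1 lower and a median of 3.41. With quantile normalization and with spike-in scaling 4 were higher, with 1 lower each time. Lcn12 and Lcn13, among the 6, were well above background on neither E13 array. C8g, a complement chain, rose from 4.08 and 4.02 to 7.39 and 7.53 (3.41 ± 0.15, SE, adjusted p = 0.000144). Ptgds, a prostaglandin synthase with a lipocalin fold, rose from -4.54 and -4.18, above background on 1 E13 array, to 1.17 and 0.92 (5.41 ± 0.20, SE, adjusted p = 0.000107). Ambp, the precursor of alpha-1-microglobulin, rose by 1.12 ± 0.15 (SE, adjusted p = 0.00323), but was at -0.26 with quantile normalization and -0.13 with spike-in scaling. Apom, an apolipoprotein of high-density lipoprotein, fell from 8.62 and 8.61 to 7.35 and 7.01 (-1.43 ± 0.18, SE, adjusted p = 0.00256).

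Genes most like each of the 7 acute phase genes detected on all arrays were found among 12745 genes, also detected on all arrays, by the root mean square difference of levels centred on each gene's own mean over the 4 arrays. With 4 arrays in 2 groups, such likeness mostly reflects the size of the group difference and then the gap between replicates. Saa1 was most like G6pc, glucose-6-phosphatase (0.17), and Igf1 (0.24), and Saa3 was most like G6pc (0.19) and Aspg (0.24). Saa4 was nearest to Neb (0.036) and Rarres1 (0.055), and Lrg1 to Serpina3m (0.51) and 1100001G20Rik (0.66), the widest distances of the set. Hp was nearest to Hao1 (0.097) and Egfr (0.20), Lcn2 to Ceacam1 (0.061) and Ces1e (0.10), and Azgp1 to Iigp1 (0.20) and Cps1 (0.23), the urea cycle enzyme. Cps1 was at -0.41 and -1.98 on the E13 arrays and at 7.87 and 8.18 on the adult arrays.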

How the data were processed

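Per the file headers, all 4 arrays shared 1 slide and 1 scan time, and each spot's intensity came from Agilent Feature Extraction (version 10.7.3.1), with background subtracted and no scaling between arrays. In the authors' deposited table, log2 values differed from log2 intensity by a constant per array close to its 75th percentile (r = 1) and served as an alternative. Here log2 intensities of a probe's spots were averaged and the 75th percentile subtracted. The 1639 control spots and 18 probes marked as outliers were left out. Probes had to be well above background on both arrays of a group, and the brightest such probe stood for its gene. Groups were compared with limma 3.58.1 in R 4.3.3 (lmFit, eBayes), with 2 residual and 2.55 prior degrees of freedom and Benjamini-Hochberg adjustment over 16411 genes. Log2 differences had a median standard error of 0.18, and the small number of arrays limits precision. The fit was tested on simulated data.

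The members, lists, motifs and rules were chosen with earlier results of these data known. From each list the text names the 2 called genes with the largest difference per direction among genes above background on all arrays, the largest other called gene per direction, and the first 2 uncalled ones. Promoter windows came from RefSeq (GRCm38.p6) and probe positions from the array files (mm9); no exon annotation was used here. Alternatives were other background corrections, scalings, filters, probe rules, thresholds, a replicate block and leaving out each array.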

Additional observations from a re-analysis of the deposited data

How the results depend on the processing

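The 10 acute phase genes kept their direction and their call under every alternative that could test them; Saa2, Orm1 and Orm2 cannot enter when all arrays must be above background, where the other 7 were called. Their highest adjusted p over the alternatives was 0.00704 (Lcn2, without adult replicate 2). Saa1 was at 14.03 with the mean of its probes, 1 of which was at background in E13 hepatoblasts. Counts of genes higher in adult hepatocytes moved more. Spike-in scaling gave 1980 of all genes, 4 negative acute phase genes, 6 cytokine receptors and transducers, 3 transcription factors, 0 cytokines and 4 receptors and binding partners. Quantile normalization gave 6 negative acute phase genes. With no filter on dim probes 14614 genes and 6 cytokines were called higher and with all arrays above background 0 cytokines and 3 lipocalins. Calls without the filter include background values, and the median of all genes was then 0.75. Background stands higher on the adult arrays, whose 75th percentile signals were lower (235.7 and 265.8 against 537.1 and 446.5). Il22, detected on no array, was at -6.96 and -6.67 on the E13 arrays and -5.66 and -5.62 on the adult arrays. Of calls in either direction, 49.4% were higher, against 59.4% with normexp and 14.8% with spike-in scaling.

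Some differences changed sign. Spike-in scaling moves every gene by the same amount, which by construction turns small positive differences; for the other changes the cause was not tested. Mt2 was at -0.014 with normexp, -0.82 with quantile normalization, -1.09 with spike-in scaling and between -0.074 and 0.39 with 1 array left out. Ctf1 was at -0.024 with normexp, -1.17 with spike-in scaling and between -0.21 and 0.37 with 1 array left out. Lrp2 was at 0.67 with normexp and between -0.998 and 0.62 with 1 array left out (0.0073 without E13 replicate 2). Ambp was at -0.26 with quantile normalization and -0.13 with spike-in scaling. Spike-in scaling also turned Stat3 (-0.57), Il11 (-0.29), Scarb1 (-0.22) and Eng (-0.65), and Eng was between -0.077 and 1.29 with 1 array left out.

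The labels number the replicates but name nothing that pairs them, and same-numbered samples deviated from their group means with a correlation of -0.156. With the replicate number as a block 4683 genes were called higher and 4844 lower, and all 10 acute phase genes higher. A crossed pairing, chosen after seeing the data, gave 5330 and 5433. Slide and scan could not be blocked, since all arrays shared them. Signals near background limit what E13 levels of Saa2, Orm1 and Orm2 can show.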

Other observations

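Some other acute phase genes, named after their values were seen, also had a gap between the E13 arrays. C4b, a complement component, was at -0.12 on E13 replicate 1 and -1.23 on replicate 2, and the hepcidin gene Hamp at -0.03 and -1.15, the same order as Hp, Azgp1 and Lcn2. Serpina3n, a protease inhibitor, had the opposite order, at -3.40 and -1.04. All 3 were higher in adult hepatocytes, C4b by 7.52 ± 0.40 (SE, adjusted p = 0.000248, limma), Hamp by 8.53 ± 0.47 (adjusted p = 0.000268) and Serpina3n by 7.74 ± 0.81 (adjusted p = 0.00156).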
